A study of Mus musculus with 6 samples.

Results

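The 9 genes described here are tied to cholinergic and other subpallial fates of the medial ganglionic eminence (MGE), and were followed in sorted forebrain cells of wild-type and Zeb2 knockout mouse embryos. They were taken by symbol from the 36291 gene rows of the count table, and all 9 were present: the LIM-homeobox genes Lhx8 and Isl1, the LIM-only gene Lmo3, the homeobox genes Gbx1 and Gbx2, the zinc finger genes Zic1, Zic2 and Zic4, and Chat. The study addressed what Zeb2, named Sip1 in its title, does in the migration of cortical interneurons. Poly-A RNA came from cells sorted for eGFP out of the telencephalon of Swiss embryos at E14.5, and in both genotypes eGFP marked cells reached by an Nkx2-1-iCre driver. There were 3 libraries labelled WT and 3 labelled KO, with K77, K79 and K80 each giving 1 library of either genotype. The series describes the KO as a Sip1 knockout made with Nkx2-1, and the sources used here do not say which Zeb2 alleles the WT embryos carried or which part of the gene was deleted. Since the driver follows Nkx2-1, the sort takes in only cells with a history of that gene, and Nkx2-1 is also known from the preoptic area and hypothalamus. The sources are also silent on whether a library came from 1 embryo or a pool, and p-values therefore reflect only how these libraries vary.

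The MGE gives rise to GABAergic interneurons that travel to the cortex and also to neurons that stay below it, among them the cholinergic neurons of the striatum and basal forebrain. Lhx8 and Isl1 are known to act together in turning MGE cells to the cholinergic fate, Gbx1 and Gbx2 mark or serve the same branch, and Chat encodes choline acetyltransferase, which makes acetylcholine. Zic genes are known for their expression in septum, preoptic area and dorsal midline, and Lmo3 encodes an adaptor that binds other nuclear factors without binding DNA itself. Cells bound for the cortex switch Nkx2-1 off, whereas those bound for the striatum keep it.

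The libraries held 8323531 to 11069437 gene counts each, and levels are given as CPM, the usual depth-scaled count, after TMM scaling. Zeb2 fell from 513 to 768 CPM in WT to 272 to 343 CPM in KO libraries (log2 fold change -1.11, SE 0.138, adjusted p = 0.00116 by edgeR), counted over the whole gene. The 10 markers of MGE-derived cells were all present, summing to 5110 to 6030 CPM in WT and 5640 to 6580 in KO. WT K79 was the only library with Xist reads in number (26109 counts against 13 to 28 in the others) and had 0 to 3 counts of each of the Y-linked genes Ddx3y, Eif2s3y, Kdm5d and Uty, where the other libraries had at least 310. It is also the WT library in which most of the genes followed here were highest, so results are given with and without it. Leaving it out lowers the WT mean of those genes by construction, so a larger difference without it is no separate support. All 9 genes passed the filter on low counts.

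Each of the 9 genes had a higher mean in KO than in WT, with Zic4 showing the largest fold and Chat and Gbx2 the smallest. By edgeR's quasi-likelihood test over 13835 genes, with Benjamini-Hochberg adjustment at 0.05, 3 of the 9 rose (Isl1, Gbx1 and Lmo3), 0 fell and 6 were not called, where 3.64% of all tested genes were called higher. With the K number as a block 7 of 9 rose, Lhx8, Zic1, Zic2 and Zic4 joining the first 3, against 6.13% of all genes. The median log2 fold change of the 9 was 0.64, beside -0.01 over all tested genes. In bulk RNA of sorted cells, more cells that make a transcript and more transcript per cell cannot be told apart.

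**Figure D1:**
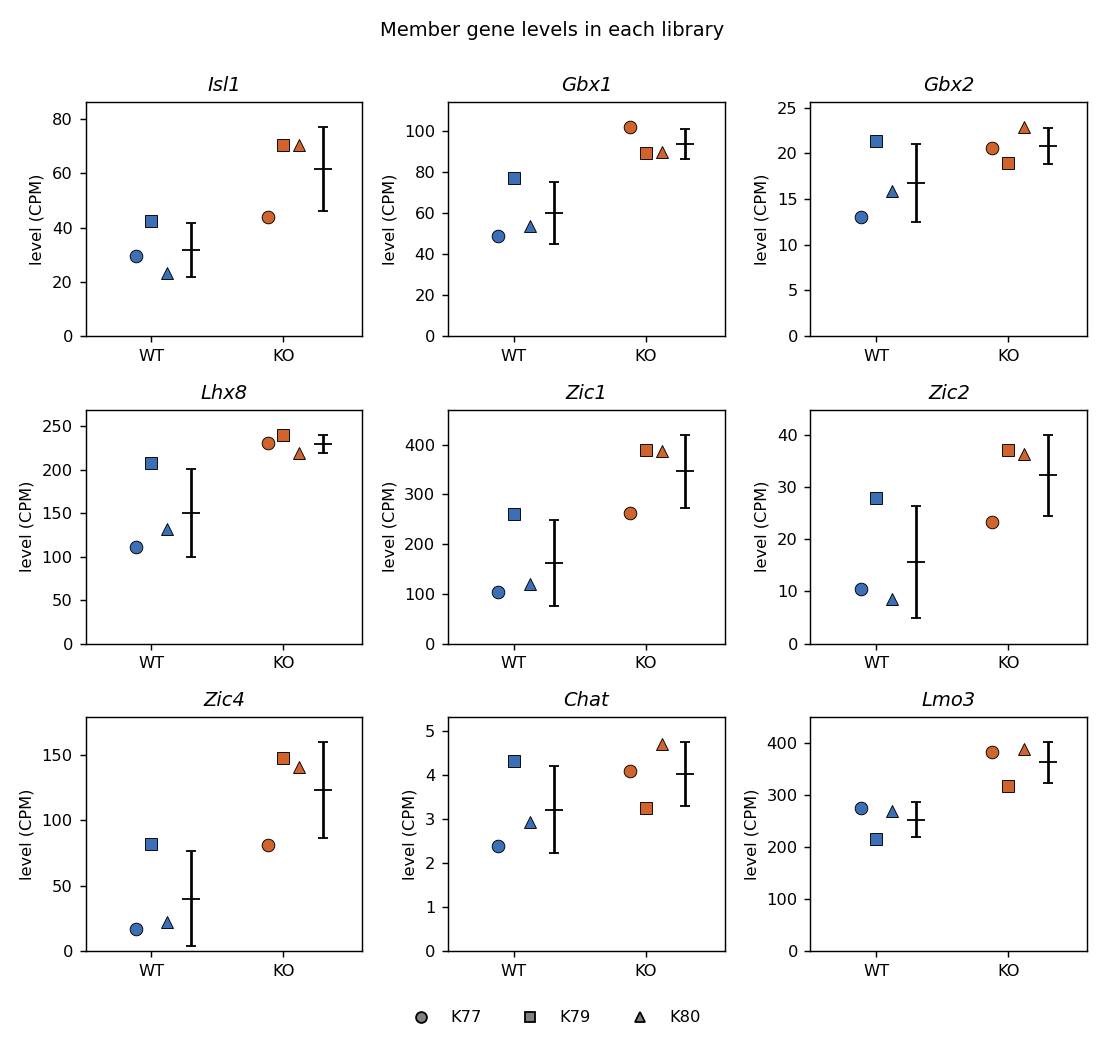
Level of each gene in CPM (vertical axes, linear from 0) in the 3 WT (blue) and 3 KO (orange) libraries, with symbols for K77, K79 and K80 and the mean with its SD (n = 3) as a black bar. WT K79 is the highest WT library in 8 of the 9 panels, and its Zic4 level of 82.0 CPM sits beside the 80.9 CPM of KO K77.

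Lhx8, a LIM-homeobox factor needed for forebrain cholinergic neurons, stood at 111, 207 and 132 CPM in the K77, K79 and K80 WT libraries and at 230, 240 and 219 CPM in KO K77, K79 and K80. All KO libraries lay above all WT libraries, and the KO libraries lay close together (SD 10.2 CPM) while the WT libraries spread from 111 to 207. The log2 fold change was 0.61 (SE 0.182, adjusted p = 0.0852), a difference not called in the unblocked fit. It was called with the block (0.65, SE 0.125, adjusted p = 0.0098) and without WT K79 (0.92, SE 0.0842, adjusted p = 0.000215). Leaving out any other single library gave no call for Lhx8, with adjusted p up to 0.254.

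Isl1, the LIM-homeobox partner of Lhx8 that is also made by striatal projection neurons and motor neurons, stood at 29.7, 42.6 and 23.1 CPM in WT K77, K79 and K80 and at 43.8, 70.7 and 70.6 CPM in KO. The groups did not overlap, but the gap between the highest WT and the lowest KO library was narrow, at 42.6 against 43.8 CPM. Isl1 rose 1.95-fold (log2 fold change 0.96, SE 0.227, 95% interval 0.46 to 1.47, adjusted p = 0.0342). The call was lost without WT K77, WT K80, KO K79 or KO K80, with adjusted p up to 0.153, and by DESeq2 (adjusted p = 0.0559), and held without WT K79 (1.24, adjusted p = 0.00695) or with the block (adjusted p = 0.0052).

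Lmo3 behaved differently from the rest within the WT group. Its level was 275, 215 and 269 CPM in WT K77, K79 and K80 and 382, 318 and 388 in KO, with no overlap. Here WT K79 was the lowest WT library, at 0.789 of the mean of the other WT libraries. Lmo3 rose 1.43-fold (log2 fold change 0.52, SE 0.106, adjusted p = 0.0172), and its difference was 0.47, 0.57 and 0.53 within K77, K79 and K80, the most even of the 9. The call was lost without KO K77 or KO K80, with adjusted p up to 0.0938.

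Gbx1, a homeobox factor of the ventral telencephalon, stood at 48.8, 77.1 and 53.5 CPM in WT K77, K79 and K80 and at 102, 89.1 and 89.8 in KO. All KO libraries were above all WT libraries, and Gbx1 rose 1.56-fold (log2 fold change 0.64, SE 0.148, adjusted p = 0.0304). Leaving out WT K79 raised the log2 fold change to 0.87 (adjusted p = 0.000418), and leaving out any other library lost the call, with adjusted p up to 0.0957.

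Gbx2, its paralogue, was lower and less separated. It stood at 13, 21.4 and 15.9 CPM in WT and 20.6, 19.0 and 22.9 CPM in KO, so WT K79 was above the lower KO libraries. The log2 fold change was 0.31 (SE 0.17, 95% interval -0.07 to 0.69, adjusted p = 0.386), and it was 0.52 without WT K79 (adjusted p = 0.0644). Gbx2 was called in 1 fit, the blocked fit without both K79 libraries (adjusted p = 0.015).

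The Zic genes, which encode zinc finger transcription factors, had the largest folds of the 9 and the widest spread between WT libraries. Zic1 stood at 104, 261 and 120 CPM in the K77, K79 and K80 WT libraries and at 262, 390 and 388 CPM in KO K77, K79 and K80. The groups were apart by no more than the step from 261 to 262 CPM, with WT K79 and KO K77 at nearly 1 level. Its log2 fold change was 1.10 (SE 0.3, adjusted p = 0.0616) without the block and 1.19 (SE 0.165, adjusted p = 0.00175) with it.

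Zic4 stood at 16.8, 82.0 and 22.1 CPM in WT K77, K79 and K80 and at 80.9, 148 and 141 CPM in KO. The groups overlapped, since WT K79 was above KO K77. The fold over the group means was the largest of the 9 at 3.04 (log2 fold change 1.61, SE 0.479, 95% interval 0.54 to 2.68), and the adjusted p was 0.0863 without the block and 0.00288 with it. Without WT K79 the log2 fold change was 2.66 (SE 0.263, adjusted p = 0.000316). Leaving out any other single library gave no call for Zic4, with adjusted p up to 0.265.

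Zic2 stood at 10.4, 27.9 and 8.54 CPM in WT and 23.2, 37.1 and 36.3 CPM in KO, again with WT K79 above KO K77. Its log2 fold change was 1.04 (SE 0.369, adjusted p = 0.15), and 1.78 (SE 0.22, adjusted p = 0.00122) without WT K79. No call was made without any other single library, with adjusted p up to 0.385. With the block Zic2 was called by edgeR at 1.13 (SE 0.247, adjusted p = 0.0183) but not by DESeq2 (adjusted p = 0.117).

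Zic1 and Zic4 are neighbours on opposite strands, and in GENCODE M21 (GRCm38) a Zic4 transcript reaches into Zic1. No source used here says whether counting was by strand, and reads from that overlap may be set aside or assigned to either gene. Over the 6 libraries the log2 levels of Zic1 and Zic4 had a Pearson correlation of 0.999, and 0.998 after each genotype's mean was taken away. Both genes share libraries and depth, and the value describes these libraries only. Zic5, the neighbour of Zic2, had 2 to 10 counts in WT and 2 to 19 in KO and did not pass the filter.

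Sequences before the transcription start are shown for Zic1 and Zic4, whose levels ran together, and for Lhx8, the abundant cholinergic factor. Capitals mark CACCT or its reverse complement AGGTG, the core that the Zeb2 zinc fingers are known to bind, and each line gives the 250 bases before the start, 5' to 3' on the gene's strand, from RefSeq (GRCm38.p6, a later build than the mm9 named in the submitters' processing notes). The windows are chr9:91365769-91366018 on the minus strand for Zic1, chr9:91368722-91368971 on the plus strand for Zic4 and chr3:154330561-154330810 on the minus strand for Lhx8.
Zic1: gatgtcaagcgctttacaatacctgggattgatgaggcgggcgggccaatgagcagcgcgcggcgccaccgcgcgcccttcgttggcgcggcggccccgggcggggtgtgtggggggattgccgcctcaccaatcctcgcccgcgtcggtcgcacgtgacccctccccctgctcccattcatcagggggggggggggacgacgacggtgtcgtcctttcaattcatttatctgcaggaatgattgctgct
Zic4: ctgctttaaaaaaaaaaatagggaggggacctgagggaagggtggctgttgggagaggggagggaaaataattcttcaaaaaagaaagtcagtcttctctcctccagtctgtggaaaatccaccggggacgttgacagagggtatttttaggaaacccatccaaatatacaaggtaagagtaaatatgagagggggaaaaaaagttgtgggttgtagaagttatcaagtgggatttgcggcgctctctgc
Lhx8: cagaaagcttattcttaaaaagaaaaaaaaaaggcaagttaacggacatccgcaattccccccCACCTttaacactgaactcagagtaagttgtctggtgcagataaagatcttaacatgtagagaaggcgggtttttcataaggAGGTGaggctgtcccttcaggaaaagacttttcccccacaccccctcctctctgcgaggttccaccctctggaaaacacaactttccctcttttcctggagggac
Lhx8 has 2 such matches before its start and the Zic1 and Zic4 windows have 0. In Zic1 and Isl1 the match lies just after the start, within the stretches shown next (chr9:91365726-91365746 and chr13:116309653-116309673, minus strand).
Zic1 after the start: ggctgaggAGGTGaaagtttc
Isl1 after the start: aggaagagAGGTGccccgagc
Of the 7 genes with a promoter entry (Gbx1 and Zic2 were not matched), 6 held CACCT on either strand in the 300 bases from 250 before to 50 after the start, and Zic4 did not. Across all 32851 windows in the table the share was 51.9%. In the 250 bases before the start alone, 4 of 7 held it, beside 46.0% of all windows. These matches describe letters in a window and carry no information on binding.

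Chat, the enzyme gene that defines cholinergic neurons, was near the lower limit of measurement. It had 22, 45 and 31 counts in the WT libraries, in that same order (2.4, 4.32 and 2.94 CPM) and 34, 33 and 52 counts in KO (4.09, 3.26 and 4.71 CPM). The groups overlapped, with WT K79 above KO K77 and KO K79. The log2 fold change was 0.31 (SE 0.262, adjusted p = 0.604), and its 95% interval of -0.27 to 0.90 leaves room for a rise nearly as large as that of Isl1. None of the fits run called it.

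Among the 9 genes, 5 had all KO libraries above all WT libraries, a pattern found in 11.8% of all tested genes. Within the K numbers, 7 of the 9 were higher in KO in each of the 3, against 22.3% of all genes, Gbx2 and Chat being lower in KO within K79 (-0.17 and -0.41). The difference was smallest within K79 for 7 genes and within K77 for the other two, Isl1 and Lmo3. Zic4 differed by 2.27, 0.85 and 2.67 on the log2 scale within K77, K79 and K80, and Lhx8 by 1.06, 0.21 and 0.73.

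**Figure D2:**
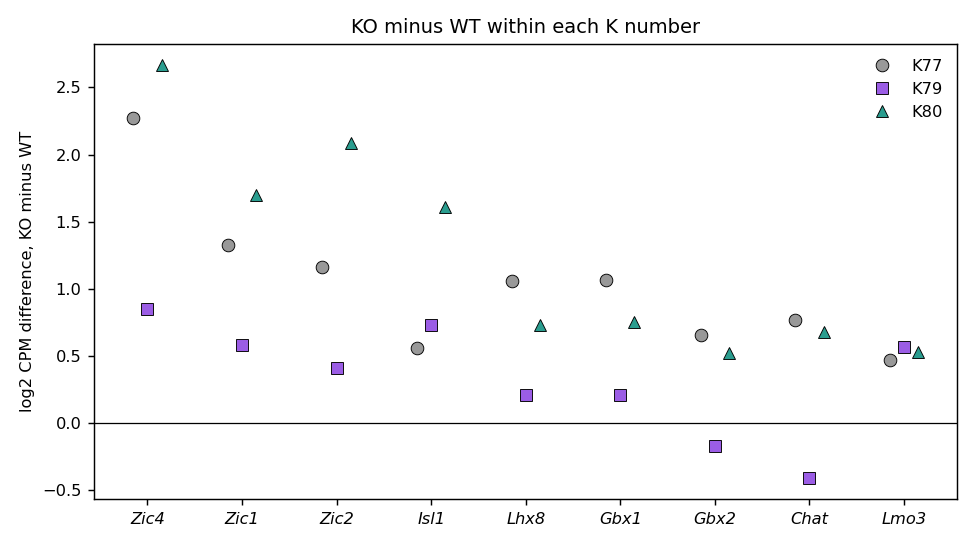
Difference in log2 CPM, KO minus WT (vertical axis), for each gene within K77 (circles), K79 (squares) and K80 (triangles). Squares are lowest for 7 genes and fall below 0 for Gbx2 and Chat, while the 3 points of Lmo3 lie between 0.47 and 0.57.

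WT K79 was the extreme WT library for all 9 genes, the highest for 8 and the lowest for Lmo3, with Zic4 at 4.21 times the mean of WT K77 and WT K80, Zic2 at 2.96 times and Zic1 at 2.33 times. Lhx8, Isl1, Chat, Gbx1 and Gbx2 were 1.48 to 1.71 times that mean. Of all tested genes 0.564% were at least 2-fold higher in WT K79 than that mean, and 5 genes of 13835 deviated upwards more than Zic4. The library differed from the other WT libraries in Xist and Y-linked reads as given above, and the part of that difference in these levels was not tested.

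**Figure D3:**
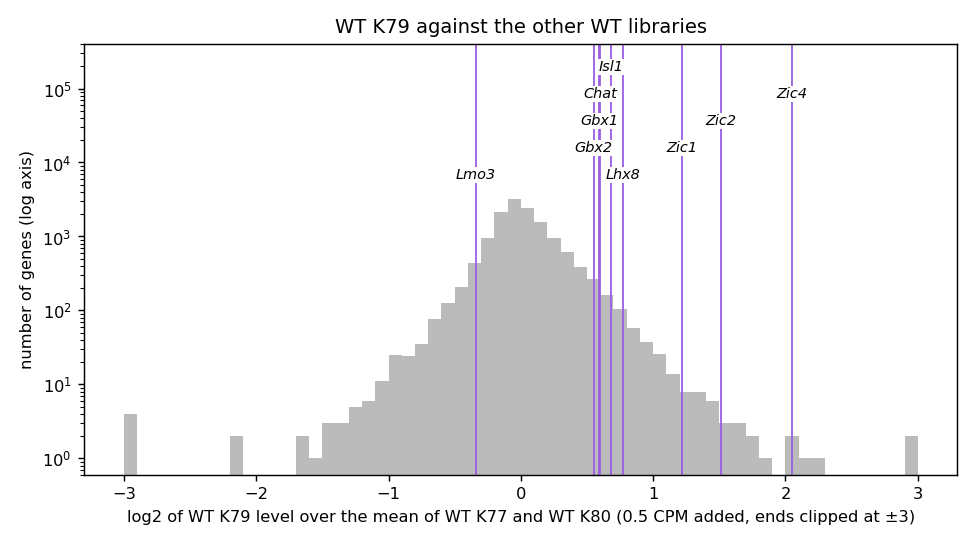
Histogram of all 13835 tested genes (vertical axis, number of genes, log scale) by the log2 ratio of WT K79 to the mean of WT K77 and WT K80 after adding 0.5 CPM (horizontal axis, ends clipped at 3 in either direction), with lines at the 9 genes. Zic1, Zic2 and Zic4 lie in the sparse right tail and Lmo3 lies left of 0.

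Without WT K79, edgeR called 7 of the 9 higher, the same 7 genes as with the block, where 4.6% of all genes were called higher. Without both K79 libraries it called 7 (2.79% of all genes), and 8 when the block was added (6.01%). The difference was smallest within K79 for 7 of the 9 genes, so more calls without both K79 libraries are no separate support. Leaving out another library took calls away: 1 gene rose without WT K77 (2.2% of all genes), WT K80 (2.65%) or KO K79 (2.04%), in each case Lmo3, and 1 without KO K77 (3.6%), which was Isl1. Without KO K80 edgeR called 0 of the 9 (1.93% of all genes). At an unadjusted p under 0.05 there were 6 of the 9, beside 1966 of all 14001 genes tested in that fit. DESeq2 called 2 (4.03% of all genes), or 4 with the block (3.66%), where Lhx8 and Gbx1 (adjusted p = 0.0935 each) and Zic2 were not called, and limma voom 5 (3.68%). With no filter on low counts edgeR called 7 (3.42%), at an adjusted p of 0.1 it called 6 (5.23%), and RLE scaling (3.65%) or a filter of 1 CPM (3.66%) left 3. The authors' deposited table called 7 of the 9 higher, against 3.37% of its tested rows, with Zic4 at an adjusted p of 6.56e-46 and Lhx8 at 1.65e-08. DESeq2 run here without the block gave an adjusted p of 0.249 for Zic4 and 0.26 for Lhx8, and called neither.

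**Figure D4:**
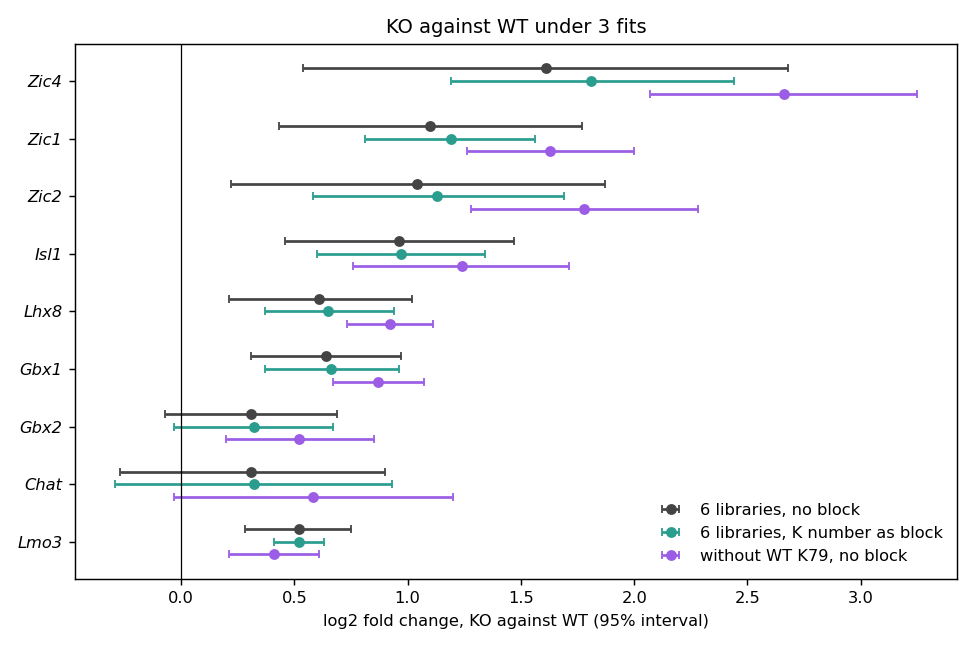
Log2 fold change of each gene, KO against WT, with its 95% interval (horizontal axis) in the unblocked fit, the fit with the K number as a block, and the unblocked fit without WT K79. Intervals of Zic4 narrow from 0.54 to 2.68 in the first to 1.19 to 2.44 in the second, and intervals of Chat cross 0 in all 3.

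**Figure D5:**
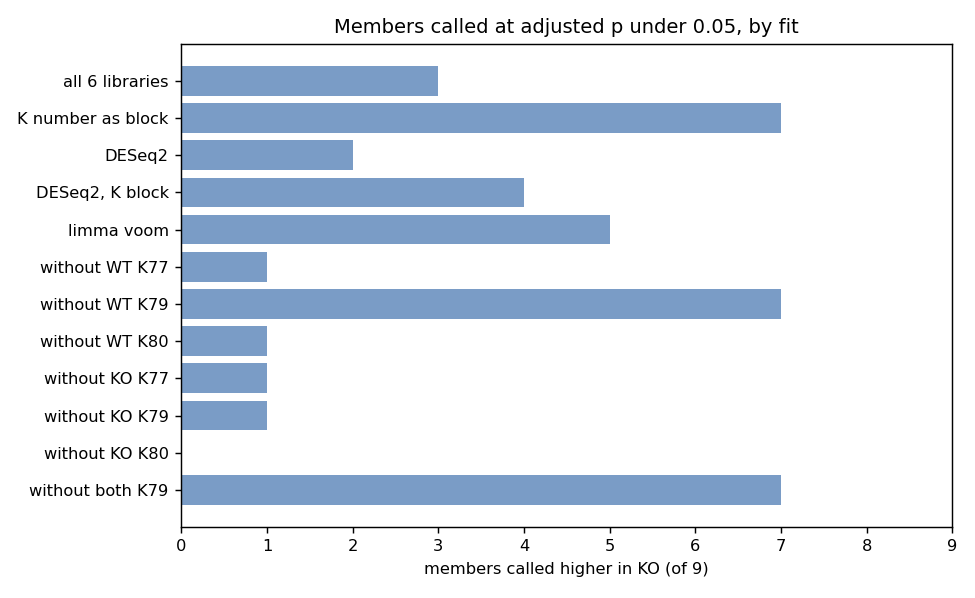
Number of the 9 genes called higher in KO at an adjusted p under 0.05 (horizontal axis) in each fit named at the left. The bars run from 0 without KO K80 to 7 with the block, without WT K79 or without both K79 libraries.

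KO libraries differed among themselves too. Isl1, Zic1, Zic2 and Zic4 were lower in KO K77 than in KO K79 and KO K80, at 0.561 to 0.674 of their mean, while Lhx8, Gbx1, Gbx2, Chat and Lmo3 in KO K77 were 0.98 to 1.14 of it. The homeobox genes Hmx2 and Hmx3, known from the hypothalamus and preoptic region, followed the same split and were singled out after their values were seen. Hmx2 had 62 counts in KO K79 and 98 in KO K80 but 0 to 3 in the other libraries, and Hmx3 had 74 and 85 against 0 or 1. In the thalamic and diencephalic marker list, Sox14, also picked after its values were seen, had 26 and 31 counts in KO K79 and KO K80 and 0 to 5 elsewhere. Of the 2 tested genes of that list, Lhx9 followed the split among KO libraries (3.73 CPM in KO K77, 5.63 and 8.25 CPM in KO K79 and KO K80). Tcf7l2 did not, at 9.14 CPM in KO K77 and 6.12 and 7.07 CPM in KO K79 and KO K80. That list of 11 genes summed to 7.88 to 14.7 CPM in WT and 14.1 to 19 CPM in KO. Gata3 and Irx3 were at 0 in every library, and 8 of the 11 were under 1 CPM on average. The part of cells with Hmx2, Hmx3 or Sox14 transcripts in the Zic and Isl1 levels was not tested.

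With KO K79 and KO K80 left out, so that KO K77 alone was set against the 3 WT libraries and assumed to vary as they do, edgeR called 0 of the 9, with 2 at an unadjusted p under 0.05 (0.579% of all genes higher). With WT K79 left out as well, 5 of the 9 were called higher (1.22% of all genes), namely Gbx1, Lhx8, Zic1, Zic2 and Zic4. In that last fit Zic4 differed by 2.05 (SE 0.17, adjusted p = 0.00135), Zic1 by 1.23 (adjusted p = 0.00212) and Lhx8 by 0.93 (adjusted p = 0.00786). That fit sets 1 KO library against 2 WT libraries, was chosen after the values were seen, and leaves out the WT library in which these genes were highest.

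Lists of markers of other cell types were read beside these results. The 18 striatal projection neuron genes, relevant because such neurons also make Isl1, summed to 987 to 1210 CPM in WT and 921 to 1020 CPM in KO. Most of that sum was Bcl11b, Sp9 and Meis2 (means of 541, 233 and 156 CPM in WT and 529, 107 and 149 CPM in KO). In the unblocked fit 3 were called higher, 1 lower and 13 of 17 tested not called, where 6.27% of all genes were called in either direction. Penk (log2 fold change 1.67), Gsx2 (0.80) and Meis1 (0.37) were the 3 higher, and Sp9 (-1.12) was the 1 lower. The 14 meningeal and perivascular genes, relevant because meninges make Zic genes, summed to 9.49 to 20.3 CPM in WT and 15.3 to 29.1 CPM in KO, Foxc2 being at 0 and 8 of the 14 under 1 CPM on average. Of its 6 tested genes 0 were called in the unblocked fit, with a median log2 fold change of 0.77. With the block 1 was called higher, Col1a2 (1.34, SE 0.305, adjusted p = 0.0221), where 6.13% of all genes were called higher. The 7 septal Cajal-Retzius genes found summed to 191 to 326 CPM in WT, highest in WT K79, and 236 to 283 CPM in KO. Most of that sum was the single gene Reln, at 210, 290 and 174 CPM in WT K77, K79 and K80 and 228, 202 and 246 CPM in KO. Of the 6 tested genes 0 were called in the unblocked fit, with log2 fold changes from -0.46 (Trp73) to 1.91 (Lhx5). The 8 cranial motor and sensory neuron genes summed to 3.55 to 4.47 CPM in WT and 1.54 to 2.17 CPM in KO, with Phox2a, Mnx1 and Pou4f2 among the members at 0 in every library. Most of the WT sum was Pou4f1, a sensory neuron homeobox gene, with means of 2.53 CPM in WT and 0.484 CPM in KO. It had 21 to 29 counts in WT libraries and 2 to 8 in KO libraries, and the other 7 genes were under 1 CPM on average. Pou4f1 was the 1 gene of that list tested, and it fell by 2.38 on the log2 scale (SE 0.414, adjusted p = 0.00745). The part of these cells in the results was not tested.

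Other genes of cholinergic neurons were read from a separate list. Of 14 listed, 13 were analysed here and 8 were tested by edgeR, 0 of them called in either direction, with 2 at an unadjusted p under 0.05 and 0 called by DESeq2 or limma voom. Over all 13835 genes 6.27% were called in either direction and 2539 had an unadjusted p under 0.05. Their median log2 fold change was 0.30. Slc5a7, the choline transporter gene, stood at 2.62, 5.85 and 4.18 CPM in WT and 2.53, 10.4 and 4.53 in KO (log2 fold change 0.47, SE 0.452, adjusted p = 0.66). Ache, the acetylcholinesterase gene, differed by 0.53 (SE 0.337), and Chrm2, a muscarinic receptor gene, by 0.54 (SE 0.196, adjusted p = 0.157). Ngfr, the low-affinity neurotrophin receptor gene, differed by -0.77 (SE 0.249, adjusted p = 0.116) and was called lower with the block (adjusted p = 0.0162). Bche (-0.26), Prima1 (0.29) and Slc10a4 (0.17) had adjusted p of 0.633, 0.688 and 0.817. Lhx3, Lhx4, Isl2 and Mnx1, factors of spinal motor neurons, had at most 3 counts in any library. Slc18a3, the vesicular acetylcholine transporter gene that lies within the Chat locus, is not analysed here.

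Among 15 tested LIM-homeobox, LIM-only and LIM-binding genes besides the 9, edgeR called 0 in the unblocked fit, with 2 at an unadjusted p under 0.05, 1 called by DESeq2 and 0 by limma voom, beside the same 6.27% called and 2539 at that p over all 13835 genes. The median was 0.10. Lhx5 had the lowest p (log2 fold change 1.91, SE 0.531, adjusted p = 0.0666, blocked 0.0427), with 6 to 25 counts in WT and 19, 61 and 104 in KO K77, K79 and K80, followed by Lhx1 (0.91, SE 0.406, adjusted p = 0.272). Ldb1, the cofactor that bridges LIM factors, differed by -0.09 (adjusted p = 0.589).

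In the list of other subpallial, septal, preoptic and pallidal genes, 14 were tested, of which 3 rose, 1 fell and 10 did not pass, with a median of 0.21, while 6.27% of all genes were called in either direction. Nkx2-1, the MGE master regulator gene, rose by 0.70 (SE 0.103, adjusted p = 0.00301), from 392, 440 and 320 CPM in WT to 659, 590 and 625 in KO. Otx2, a homeobox gene of the rostral brain, rose by 1.71 (SE 0.434, adjusted p = 0.0461), with WT K79 at 14.7 CPM beside KO K77 at 15 CPM, and Sox6 rose by 0.35 (SE 0.072). Npas1, a factor of interneurons and pallidal neurons, fell by 1.05 (SE 0.159, adjusted p = 0.00352). The number of risers in that list was 6 without WT K79 (4.6% of all genes called higher). It was 1 without KO K79 (2.04%), without KO K80 (1.93%) or without WT K77 (2.2%). Of the Gli factors, Gli1 (0.39), Gli2 (-0.44), Gli3 (-0.20) and Glis2 (0.12) were not called, and Glis1 and Glis3 did not pass the filter.

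Levels between genes were compared per kilobase of exon, with exon lengths from GENCODE M21 (GRCm38) as a stand-in for the authors' annotation. In WT the order was Lhx8 (59.2 ± 19.9 CPM per kilobase, SD, n = 3), Lmo3 (49.3 ± 6.44), Zic1 (28.4 ± 15.2), Gbx1 (17.2 ± 4.36), Isl1 (8.03 ± 2.51), Gbx2 (7.7 ± 1.96), Zic2 (5.42 ± 3.71), Zic4 (3.9 ± 3.5) and Chat (0.685 ± 0.211). The ranges over WT libraries overlapped for each neighbouring pair except Gbx1 above Isl1 and Zic4 above Chat. In KO, Lhx8 (90.7 ± 4.15) again led and Chat (0.855 ± 0.155) was last, with Zic1 at 60.9 ± 12.9 and Isl1 at 15.6 ± 3.92.

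Once the genotype means were taken away, the deviations of the 6 libraries were correlated between genes. WT K79 was the extreme WT library for all 9 genes, and its part in these values was not tested. Gbx2 and Chat, the latter with 22 to 52 counts per library, had a correlation of 0.971. Zic1 and Zic2 had 0.964, Zic2 and Zic4 0.958, Gbx1 and Lhx8 0.94, and Isl1 and Zic2 0.92. Lmo3 ran against the other 8, with -0.838 to -0.322. Over the 6 libraries as they stand, the non-member genes of at least 5 CPM most like Isl1 were Ptprn (r = 0.996), Dnajc6 (0.995) and Zfhx3 (0.995), out of 11024 compared. For Lhx8 they were Angptl2 (0.995), Gusb (0.993) and Pvrl3 (0.99), and for Zic1 Aifm3 (0.994), Adamts6 (0.994) and Nrp2 (0.993). These are descriptions over 6 libraries that share their depth and genotype split.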

How the data were processed

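The authors deposited unnormalized whole-number counts of reads per gene for 6 libraries (3 WT, 3 KO). Genome build mm9, DESeq 1.2.2, HTSeq 0.5.3p3 and TopHat 1.2.0 appear in the submitters' processing notes, and the sources used here give neither annotation nor strand setting. The authors' deposited table gives a fold as a ratio, its log2 value and p-values, per the file headers. Its groups are called A and B, and it was read as KO over WT because its 777 calls shared with edgeR all had the same sign. Rows naming no gene stayed out (no-feature reads 19.75 to 21.77%, ambiguous 1.94 to 1.99% of counts).

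Counts were tested in R 4.3.3 with edgeR 4.0.16 (TMM, filterByExpr with a minimum count of 10, quasi-likelihood test), beside DESeq2 1.42.0 and limma 3.58.1 voom. The SE is the log2 fold change over the square root of F. Libraries of the same K number deviated together from their genotype means (correlation across genes 0.256, 0.197 and 0.175 for K77, K79 and K80), each over the limit of 0.1, and the K number was therefore read as a pairing. Because the labels state no block, the unblocked fit is given first, with the blocked fit beside it. Libraries of 1 genotype differed by more than counting noise (chi-square per degree of freedom 3.65 to 10.1).

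The genes followed and all lists were chosen with earlier results of these data known. Named genes were the 9, Zeb2, the cholinergic and Zic lists, up to 4 called genes (or the 2 of lowest p) of each other list, and the 3 genes most like Isl1, Lhx8 and Zic1. Some genes that this rule names are not reported here. Others, such as Hmx2, Hmx3, Sox14 and Ldb1, were chosen after their values were seen. Alternatives that leave out both K79 libraries, or KO K79 and KO K80, were added after seeing the data.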

Additional observations from a re-analysis of the deposited data

How the results depend on the processing

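All 9 genes stayed higher in KO in each of the 17 alternative fits run, so that of 153 values 106 kept both direction and side of the threshold, 18 lost a call, 29 gained a call and 0 changed sign. The number called higher, 3 in the unblocked fit, was 7 with the K number as a replicate block, 7 with no filter on low counts, 5 with limma voom and 6 at an adjusted p of 0.1 (5.23% of all genes). It was 7 without both K79 libraries and 8 with the block added. Leaving out 1 library gave 0 to 7. Over all genes the 867 calls became 1463 with the replicate block and 445 to 1044 without 1 library. In the cholinergic list 1 gene was called lower with the block or with no filter, and 0 to 1 without 1 library. In the LIM list 1 gene was called higher with DESeq2, no filter or the block, with 0 to 1 higher and 0 to 1 lower without 1 library. The 1 riser of the Zic and Gli list became 0 with DESeq2 and 0 to 1 without 1 library, and the 3 risers of the subpallial list became 7 with no filter and 1 to 6 without 1 library. Of all genes, 4.03% were called higher with DESeq2, 3.42% with no filter and 1.93% to 4.6% without 1 library. The cause of these shifts was not tested. The motif share was 85.7% in the longer and 57.1% in the shorter window. With 22 to 52 counts per library, the interval of Chat takes in both 0 and the change seen in Gbx1.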
